A study of Mus musculus with 12 samples.

Results

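The genes described here fold, modify and export secreted proteins at the endoplasmic reticulum (ER), the compartment in which secreted and membrane proteins are made, or sense its folding load. They were 36 genes listed by name, of which 35 were found by symbol among the 30389 genes of the deposited table. By role they were 8 chaperones of the ER lumen, 6 lectin chaperones and disulfide isomerases, 6 collagen folding and export genes, 9 listed translocon and signal peptidase genes of which 8 were found, and 7 sensors and effectors of the unfolded protein response. In vascular anomalies, 21 of the 35 genes were higher than in normal muscle and 3 were lower by limma's test, against 32.4% of all tested genes higher and 31.0% lower, and 11 did not pass it.

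Messenger RNA was measured in 12 libraries from muscle of 6 C57BL/6 mice, in a study of an endothelial mutagenesis screen. The 3 mice with vascular anomalies had the genotype VEC-Cre;SB Transposase; onc3, which the submitters also call SBxVEC-Cre+. The promoter of VE-cadherin, a junction protein of endothelial cells, drives Cre in them. The 3 mice that gave normal muscle carried SB Transposase; onc3 without Cre, so all 6 animals shared the transposase and onc3, the transposon it can move. Each animal gave 2 libraries, which were pieces of tissue or, in anomaly animal 2, separate lesions. Libraries of 1 animal share their source, so animals were compared (n = 3 in each group), and the p-values reflect the variation between these animals. Ages were not given in the sources used here. A lesion holds many cell types besides the endothelial cells in which the VE-cadherin promoter is known to act.

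A secreted protein enters the ER through the Sec61 channel, loses its signal peptide to signal peptidase, and is folded by chaperones such as BiP (Hspa5) and by disulfide isomerases. Collagen chains need further helpers, among them the prolyl 3-hydroxylation complex and HSP47 (Serpinh1), before they leave for the Golgi. When unfolded protein accumulates, the sensors IRE1, PERK and ATF6 start the unfolded protein response, in which the factors XBP1, ATF6 and ATF4 raise the transcription of chaperone and degradation genes.

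The sequences below show a motif that is known for this response, the ER stress response element (ERSE), in the promoters of the genes that held it. An exact ERSE, which is CCAAT, any 9 bases, and CCACG on either strand, was searched in RefSeq windows of GRCm38.p6 that run from 250 bases before to 50 bases after each transcription start. Of the 36 listed genes, 30 had a window, and 7 of these held an ERSE, against 37 of all 27025 genes with a window (0.137%). Hsp90b1 held 2, and it was the only gene of the 27025 with more than 1. ERSE-II, which is ATTGG, any 1 base, and CCACG, was found in Dnajb11 and Herpud1 and in 12 genes of the 27025 (0.0444%). The 8-base UPRE, TGACGTGG, was in none of the 30 windows and in 193 of the 27025 genes (0.714%). Each sequence reads 5′ to 3′ on the strand of its gene, and the capitals mark the motif, which reads as CGTGG, any 9 bases, and ATTGG where it lies on the other strand. Their coordinates, on GRCm38.p6, were chr2:34772020-34772048 (plus strand) for Hspa5, chr10:86705528-86705661 (minus strand) for Hsp90b1, chr8:84847045-84847123 (minus) for Calr, chr11:50325770-50325848 (minus) for Canx, chr12:17266461-17266539 (plus) for Pdia6, chr15:88819490-88819568 (plus) for Creld2, chr14:118937797-118937875 (plus) for Dnajc3 and chr8:94386347-94386417 (plus) for Herpud1. A match describes these letters and is not a shown binding site.
Hspa5: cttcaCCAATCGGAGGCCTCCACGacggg
Hsp90b1: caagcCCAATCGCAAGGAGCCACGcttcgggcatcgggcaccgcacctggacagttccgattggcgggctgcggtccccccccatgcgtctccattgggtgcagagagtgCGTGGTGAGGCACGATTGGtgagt
Calr: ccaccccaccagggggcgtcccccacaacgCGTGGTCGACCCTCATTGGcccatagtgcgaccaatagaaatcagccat
Canx: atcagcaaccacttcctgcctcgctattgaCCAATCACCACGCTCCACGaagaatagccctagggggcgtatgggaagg
Pdia6: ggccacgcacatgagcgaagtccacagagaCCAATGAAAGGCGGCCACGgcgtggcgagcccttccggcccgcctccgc
Creld2: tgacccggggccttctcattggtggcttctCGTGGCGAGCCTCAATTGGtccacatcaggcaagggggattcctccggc
Dnajc3: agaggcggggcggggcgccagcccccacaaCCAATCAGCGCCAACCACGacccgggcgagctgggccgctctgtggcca
Herpud1, with ERSE-II: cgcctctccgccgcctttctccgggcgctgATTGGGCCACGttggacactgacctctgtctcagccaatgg

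**Figure D1:**
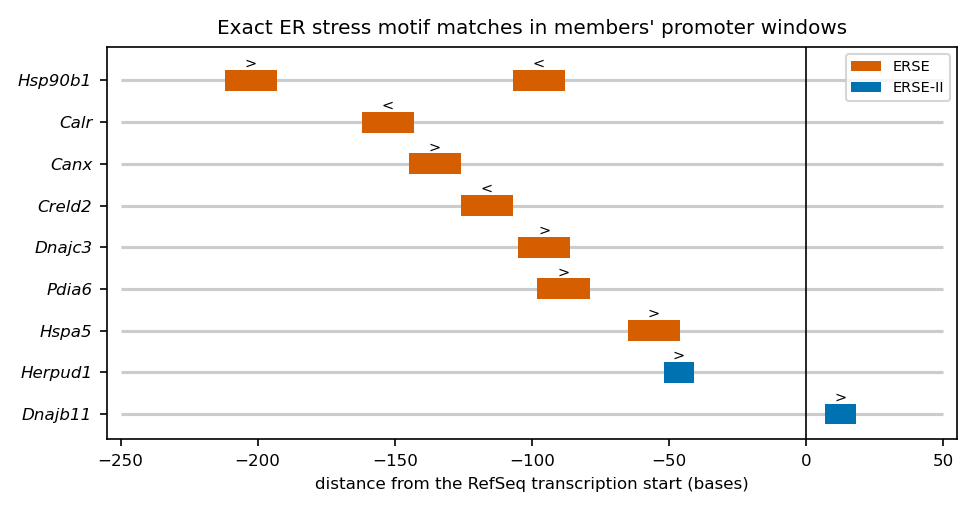
Positions of exact ERSE (orange) and ERSE-II (blue) matches along the promoter windows of the 9 listed genes that held one, in bases from the RefSeq transcription start at 0; arrowheads give the motif's direction relative to the gene. The ERSE matches lay between positions -212 and -46, and the ERSE-II of Dnajb11 lay between positions 7 and 18, after the start.

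The deposited values were log2 CPM, read counts scaled to library size, from which CPM and read counts were recovered. Anomaly libraries held 254404 to 18476461 reads, and normal libraries held 17380211 to 32155879. The shallow library was piece 1 of anomaly animal 1, where 1 recovered unit weighed 1.85 CPM and the members had 6 to 443 units, while each member had at least 22 reads in every other library. The 50 most abundant genes accounted for 14.6% to 22.9% of each anomaly library and 47.7% to 50.8% of each normal library. Muscle fibre transcripts were fewer in the anomalies. The summed level of 8 muscle fibre markers ran from 184 to 35163 CPM over the anomaly libraries. Over the normal ones it ran from 211263 to 273768 CPM. Of these markers, 6 were lower and 2 had no call (75% lower, against 31.0% of all tested genes). Tnnc2 was at 0 in at least 1 anomaly library. The lesions of anomaly animals 1 and 2, at 184 to 1761 CPM, thus held little of the RNA that defines the labelled tissue. Those of animal 3 held more, at 11585 and 35163 CPM, still below every normal library. Of the markers of other cell types, 7 of 8 endothelial, 8 of 8 macrophage, 5 of 7 mural and 6 of 6 cell division markers were higher, and 3 of 8 fibroblast markers were (37.5%, against 32.4% of all tested genes), with 5 not called. In bulk tissue, fewer cells of a type and less RNA per cell cannot be told apart, which holds for every value below.

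Across the whole table, limma tested 14687 genes that averaged 1 CPM or more in either group, and 63.4% of them had an adjusted p under 0.05. Higher in anomaly were 32.4% of the tested genes and lower were 31.0%, with a median log2 fold change of 0.09 and quartiles of -0.97 and 1.15. All 35 members were tested, of which 21 were higher and 3 lower, with a median log2 fold change of 1.09. In 21 members all 6 anomaly libraries lay above all 6 normal libraries, an arrangement seen in 28.8% of tested genes, and in 3 members all 6 lay below, as in 27.6% of tested genes. The members took 0.954% ± 0.351 of all reads in anomaly animals, with 1.30%, 0.964% and 0.597% in animals 1, 2 and 3, and 0.202% ± 0.008 in normal animals (SD, n = 3 each). This is a share of library totals, of which the 50 most abundant genes took less in anomaly libraries, as given above. With anomaly animal 1 represented by piece 2 alone, 21 members were higher and 3 lower.

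**Figure D2:**
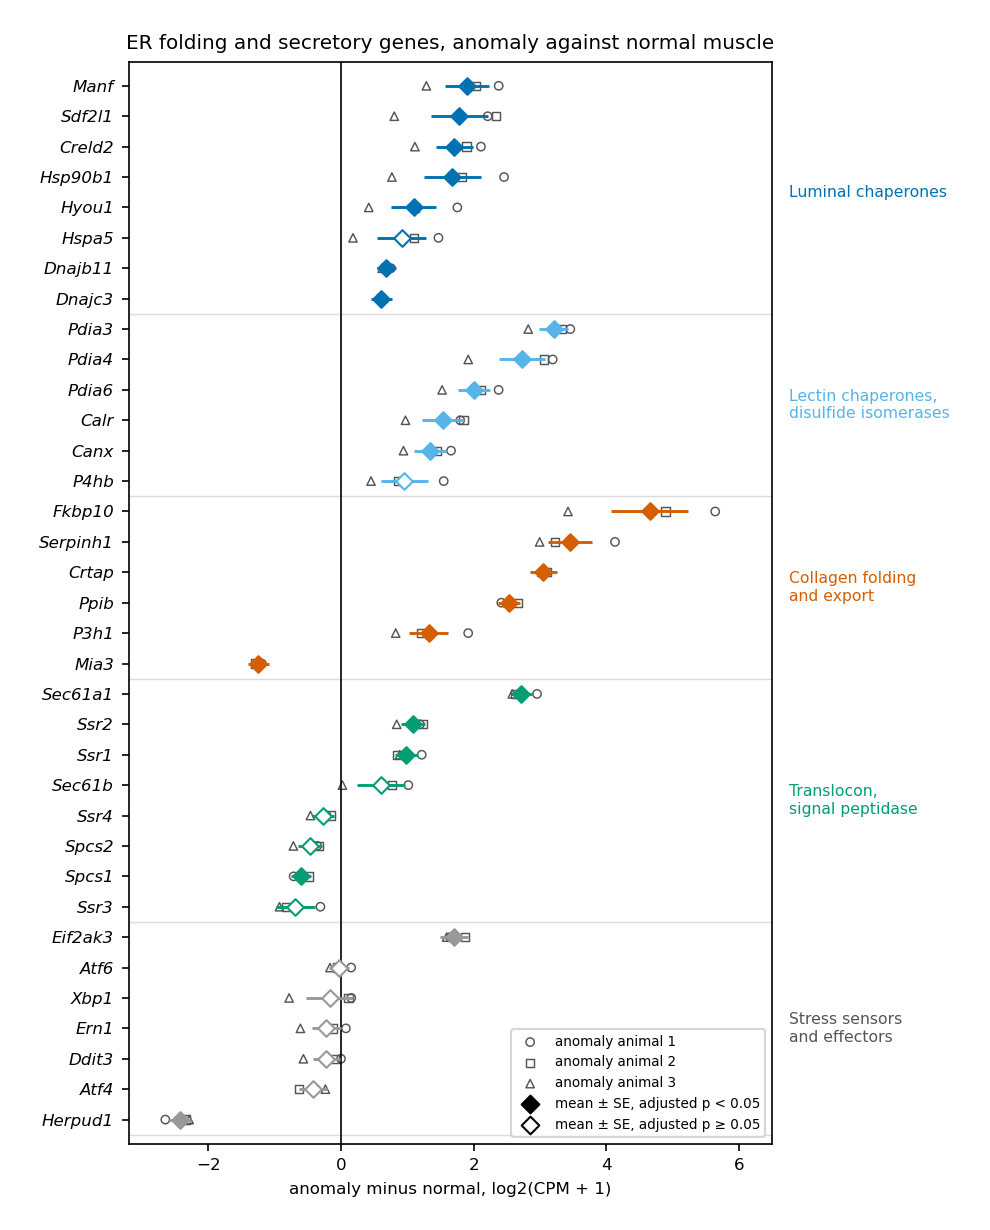
Log2 fold change of each member, anomaly minus normal muscle on the log2(CPM + 1) scale, grouped by role; diamonds are limma estimates ± SE (n = 3 animals per group, filled where the adjusted p is under 0.05) and open symbols are the 3 anomaly animals against the normal mean. Chaperone and collagen genes lie to the right of 0 except Mia3, while the stress sensors and effectors gather around 0 except Eif2ak3 and Herpud1.

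Among the lectin chaperones and disulfide isomerases, 5 of 6 genes were higher in anomaly (83.3%, against 32.4% of all tested genes). None was lower, and the median log2 fold change was 1.77. Pdia3, the isomerase that works with the lectin chaperones on glycoproteins, had 300 CPM at the lowest, 394 at the median and 731 at the highest anomaly library, against 42.9, 46.1 and 49.2 CPM in normal libraries. The lowest anomaly library was several times above the highest normal one, and limma gave a log2 fold change of 3.20 ± 0.22 (SE; adjusted p = 0.000192). Pdia4, an isomerase with an additional thioredoxin domain, had 55.9, 109 and 198 CPM (lowest, median, highest) in anomaly libraries and 12.9, 14.1 and 16.3 CPM in normal libraries. The groups did not overlap and the log2 fold change was 2.72 ± 0.35 (adjusted p = 0.00111). Pdia6, an isomerase that acts together with BiP, averaged 248 ± 82.6 CPM in anomaly animals and 56.5 ± 2.36 CPM in normal animals (SD, n = 3), a log2 fold change of 2.00 ± 0.25 (adjusted p = 0.001).

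The lectin chaperones themselves changed less. Calr, the soluble calcium-binding lectin calreticulin, averaged 581 ± 182 CPM in anomaly animals and 189 ± 21.7 CPM in normal animals, a log2 fold change of 1.54 ± 0.31 (adjusted p = 0.00612). Canx, its membrane-bound relative calnexin, averaged 289 ± 76.7 CPM in anomaly animals and 109 ± 12.5 CPM in normal animals, a log2 fold change of 1.35 ± 0.24 (adjusted p = 0.00392). For both genes every anomaly library was above every normal one. P4hb is protein disulfide isomerase itself and also the beta subunit of collagen prolyl 4-hydroxylase. It had 400, 551 and 948 CPM (lowest, median, highest) in anomaly libraries and 248, 315 and 338 CPM in normal libraries. All anomaly libraries were above all normal ones, but the log2 fold change of 0.95 ± 0.35 did not pass the test (adjusted p = 0.0519). It passed under 7 of 19 alternatives, among them leaving out anomaly animal 3 (log2 fold change 1.20, adjusted p = 0.00946), voom on reads summed per animal (adjusted p = 0.0328) and fits of all 12 libraries that treat the animal as a random effect (adjusted p = 0.00764, and 0.0103 with the piece number as a replicate block). The 12-library fits give all genes 1 correlation between pieces of an animal (0.447, and 0.446 with the replicate block). For a gene whose own correlation is larger, their p is too small.

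The luminal chaperones were higher in 7 of 8 cases (87.5%, against 32.4% of all tested genes), with none lower and a median log2 fold change of 1.39. Hsp90b1, the ER member of the HSP90 family known as GRP94, had 166, 354 and 746 CPM (lowest, median, highest) in anomaly libraries and 88.0, 102 and 112 CPM in normal libraries. No anomaly library reached down to the normal range, yet the animals were spread: they averaged 578, 354 and 171 CPM in anomaly animals 1, 2 and 3, and the log2 fold change was 1.68 ± 0.42 (adjusted p = 0.0139). In GRCm38, Hsp90b1 lies at chromosome 10, 86690209 to 86705509, on the minus strand, and 15.7% of its exon bases are also annotated to other genes, which unstranded reads cannot separate. Hspa5, which encodes BiP, the ER member of the HSP70 family and the chaperone that binds the 3 stress sensors, did not pass the test. It had 264, 459 and 937 CPM in anomaly libraries and 218, 238 and 271 CPM in normal libraries. Animals 1 and 2 averaged 706 and 524 CPM, while animal 3 averaged 273 CPM, just above the normal range of 231 to 260 CPM per animal. The lower library of animal 3, at 264 CPM, lay within the range of the normal libraries. The log2 fold change of Hspa5 was 0.92 ± 0.37 (95% interval 0.02 to 1.81; adjusted p = 0.0681), and without anomaly animal 3 it was 1.29 (adjusted p = 0.00201). In the 12-library fits Hspa5 passed (adjusted p = 0.0273, and 0.034 with the replicate block). Most of the 19 alternatives left it without a call, with adjusted p up to 0.272 and log2 fold changes from 0.48 to 2.07. Leaving out each animal in turn gave adjusted p up to 0.167.

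The other chaperones of the lumen fell into a group with larger and a group with smaller changes. Manf, a small secreted ER stress protein, averaged 63.5 ± 24.4 CPM in anomaly animals and 15.5 ± 4.75 CPM in normal animals, a log2 fold change of 1.90 ± 0.34 (adjusted p = 0.00357). Sdf2l1, a partner of the ER J-domain protein ERdj3, averaged 18.3 ± 9.64 CPM in anomaly animals and 3.79 ± 0.466 CPM in normal animals, a log2 fold change of 1.78 ± 0.43 (adjusted p = 0.0115). Creld2, an ER-resident protein with EGF-like domains, averaged 28.6 ± 10.2 CPM in anomaly animals and 7.54 ± 0.265 CPM in normal animals, a log2 fold change of 1.71 ± 0.28 (adjusted p = 0.00272). These 3 genes had no overlap between anomaly and normal libraries. Sdf2l1 lost its call when reads were summed per animal and fitted with voom (adjusted p = 0.0597). Hyou1, the large HSP70-like nucleotide exchange factor for BiP, averaged 101 ± 48.4 CPM in anomaly animals and 42.4 ± 4.15 CPM in normal animals, a log2 fold change of 1.09 ± 0.34 (adjusted p = 0.0285). Its call was lost under 7 alternatives, among them leaving out any 1 of the 3 normal animals or anomaly animal 2 (adjusted p up to 0.0867), and under the recomputed trimmed mean the log2 fold change was 0.66 (adjusted p = 0.106).

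Both J-domain proteins among the members, which are partners of BiP, had small changes. Dnajb11, which encodes ERdj3, averaged 71.4 ± 5.03 CPM in anomaly animals and 43.6 ± 3.8 CPM in normal animals, a log2 fold change of 0.68 ± 0.14 (adjusted p = 0.00685). Dnajc3, also known as p58IPK, averaged 80.5 ± 1.32 CPM in anomaly animals and 52.2 ± 6.86 CPM in normal animals, a log2 fold change of 0.61 ± 0.16 (adjusted p = 0.0144). The means of the anomaly animals were close, at 67.4 to 77.0 CPM for Dnajb11 and 79.1 to 81.8 CPM for Dnajc3, but those of animal 1 average unequal pieces, with 55.6 and 98.4 CPM of Dnajb11 and 59.3 and 104 CPM of Dnajc3 in pieces 1 and 2. The libraries of Dnajc3 overlapped between groups and those of Dnajb11 did not. Neither gene passed with a trimmed mean recomputed over all reads (adjusted p = 0.371 for Dnajc3 and 0.21 for Dnajb11), and neither passed with piece 1 of each animal alone (adjusted p = 0.152 and 0.0767). Dnajc3 also lost its call without normal animal 2 (adjusted p = 0.056) or normal animal 3 (adjusted p = 0.0598).

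Collagen folding genes had the highest median change of the 5 roles, at a log2 fold change of 2.79. Of the 6 genes, 5 were higher and 1 lower (83.3% and 16.7%, against 32.4% and 31.0% of all tested genes). Fkbp10, which encodes the collagen prolyl isomerase FKBP65, had 36.7, 117 and 235 CPM (lowest, median, highest) in anomaly libraries and 1.25, 3.45 and 3.94 CPM in normal libraries. It was low in every normal library and ranked 77th by log2 fold change among the 14687 tested genes, at 4.65 ± 0.57 (adjusted p = 0.00101). The anomaly animals differed widely, at 196, 117 and 40.8 CPM in animals 1, 2 and 3. Serpinh1, the collagen-specific chaperone HSP47, had 441, 537 and 1589 CPM in anomaly libraries and 48.7, 52.5 and 71.3 CPM in normal libraries. The highest value came from piece 2 of anomaly animal 1 and stood apart from the other 5, while all 6 lay above the normal range; the log2 fold change was 3.45 ± 0.34 (adjusted p = 0.000478).

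The prolyl 3-hydroxylation complex consists of the enzyme P3h1, the cartilage-associated protein Crtap and the prolyl isomerase cyclophilin B (Ppib), and its members did not change by the same amount. Crtap averaged 64.0 ± 2.08 CPM in anomaly animals and 6.96 ± 1.75 CPM in normal animals, a log2 fold change of 3.05 ± 0.20 (adjusted p = 0.00017). Ppib averaged 69.7 ± 5.87 CPM in anomaly animals and 11.0 ± 1.43 CPM in normal animals, a log2 fold change of 2.54 ± 0.16 (adjusted p = 0.000162). For Ppib, 25% of the exon bases are also annotated to Snx22, so its reads are uncertain. P3h1 averaged 38.1 ± 15.5 CPM in anomaly animals and 13.9 ± 1.58 CPM in normal animals, a log2 fold change of 1.32 ± 0.29 (adjusted p = 0.00872). The 3 anomaly animals had 55.4, 33.7 and 25.3 CPM of P3h1, whereas their means of Crtap ran evenly from 62.4 to 66.4 CPM. Those means average unequal pieces, with 51.9 and 74.7 CPM of Crtap in animal 1 and 75.3 and 57.5 CPM in animal 2.

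Mia3, which encodes TANGO1, a receptor at ER exit sites that loads bulky collagens into transport carriers, went the other way. It had 41.3, 49.6 and 59.5 CPM (lowest, median, highest) in anomaly libraries and 94.5, 122 and 141 CPM in normal libraries. Every anomaly library was below every normal one, and the log2 fold change was -1.25 ± 0.15 (adjusted p = 0.000987). With scaling by library totals alone the log2 fold change of Mia3 was -0.10 (adjusted p = 0.578), while the median of all tested genes then was 0.97. Mia2, a partner of TANGO1 at ER exit sites, was also lower, at 43.0 ± 3.75 CPM in anomaly animals and 82.3 ± 3.88 CPM in normal animals (log2 fold change -0.93 ± 0.14, adjusted p = 0.00198).

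**Figure D3:**
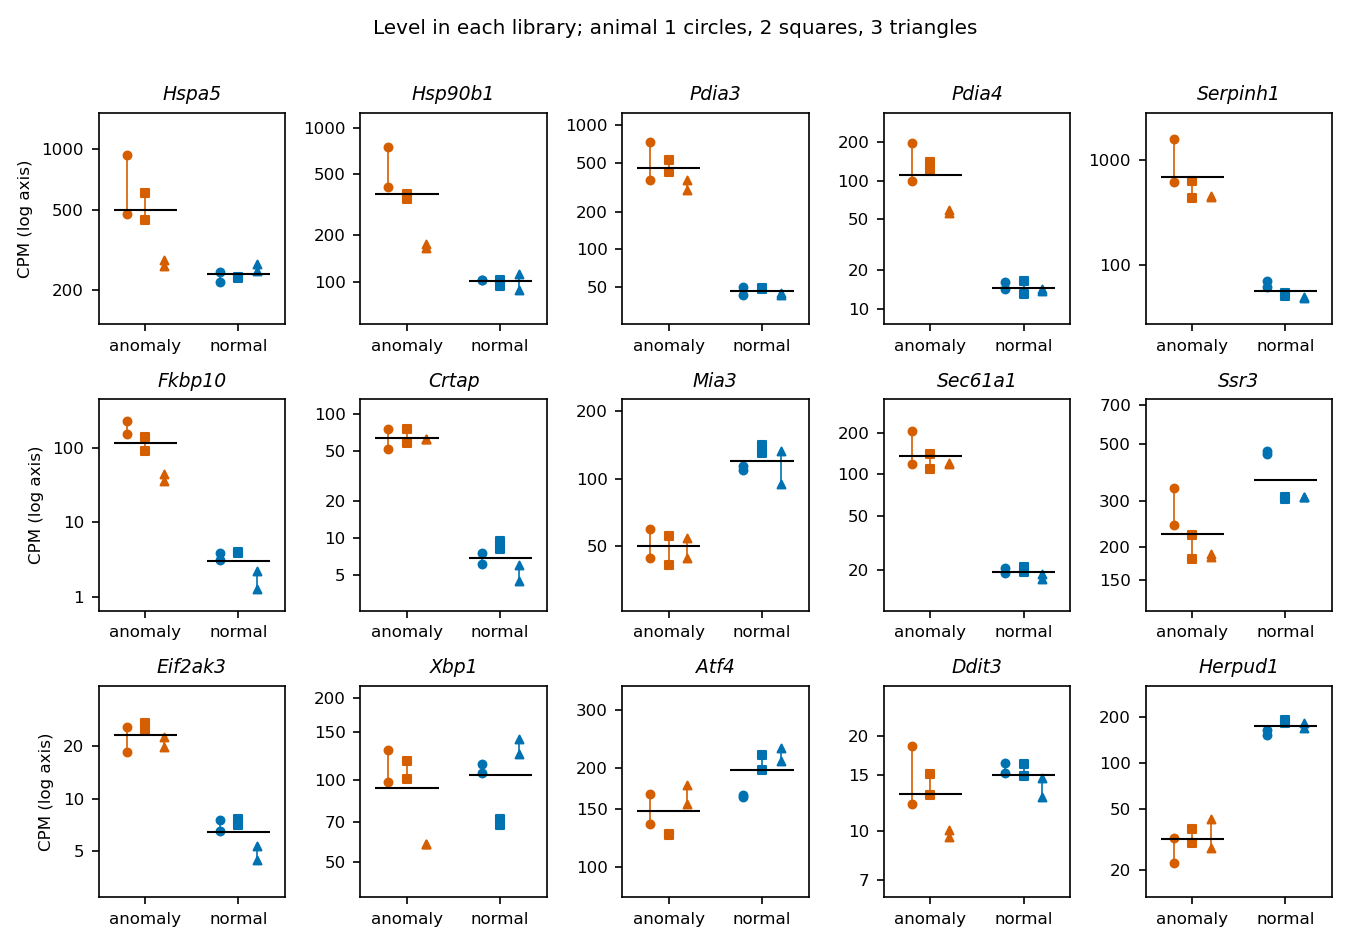
CPM of 15 members in each library on log axes, anomaly on the left and normal muscle on the right of each panel; lines join the 2 libraries of an animal and bars are the mean of the 3 animals. Hsp90b1, Pdia3, Pdia4, Serpinh1, Fkbp10, Crtap, Sec61a1 and Eif2ak3 lie wholly above the normal range, Mia3 and Herpud1 wholly below it, and Xbp1, Atf4, Ddit3, Ssr3 and Hspa5 overlap it.

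Of the 8 translocon and signal peptidase genes, 3 were higher (37.5%, against 32.4% of all tested genes), 1 was lower, 4 had no call, and the median log2 fold change was 0.16. Sec61a1, the pore-forming subunit of the channel, had 110, 121 and 207 CPM (lowest, median, highest) in anomaly libraries and 17.2, 19.2 and 21.2 CPM in normal libraries. The groups were far apart, and the log2 fold change of 2.72 ± 0.16 had the smallest p of all members (adjusted p = 0.000143). Sec61b, a small subunit of the same channel, averaged 20.6 ± 7.28 CPM in anomaly animals and 13.1 ± 4.56 CPM in normal animals. Its log2 fold change of 0.60 ± 0.36 did not pass the test (95% interval -0.27 to 1.48; adjusted p = 0.184), and 84.0% of its transcript also matches other annotated genes, so its reads are uncertain. Sec61g, the remaining channel subunit, was not found by symbol and is not counted; the identifier that GENCODE gives to it averaged 2.45 ± 1.37 CPM in anomaly animals and 3.22 ± 0.459 CPM in normal animals (log2 fold change -0.35 ± 0.31, adjusted p = 0.347).

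The 4 subunits of the translocon-associated protein complex, which sits beside the channel and helps some signal peptides in, went in both directions. Ssr2 averaged 83.1 ± 13.4 CPM in anomaly animals and 37.6 ± 4.24 CPM in normal animals, a log2 fold change of 1.09 ± 0.18 (adjusted p = 0.00263). Ssr1 averaged 139 ± 22.2 CPM in anomaly animals and 69.0 ± 4.46 CPM in normal animals, a log2 fold change of 0.98 ± 0.17 (adjusted p = 0.00339). These subunits were higher without overlap between libraries. Ssr4 averaged 45.7 ± 5.90 CPM in anomaly animals and 54.3 ± 6.11 CPM in normal animals, with a log2 fold change of -0.28 ± 0.16 that did not pass the test (95% interval -0.67 to 0.12; adjusted p = 0.178). Ssr3 averaged 226 ± 55.8 CPM in anomaly animals and 361 ± 88.0 CPM in normal animals, with a log2 fold change of -0.69 ± 0.29 that did not pass it either (95% interval -1.38 to 0.01; adjusted p = 0.0766). The high normal values of Ssr3 came from normal animal 1 at 463 CPM, against 309 and 311 CPM in normal animals 2 and 3. Without anomaly animal 1 the log2 fold change of Ssr3 was -0.87 (adjusted p = 0.0347), and in the 12-library fits it passed as lower (adjusted p = 0.0237, and 0.0298 with the replicate block).

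Signal peptidase, which removes signal peptides, was represented by its accessory subunits. Spcs1 averaged 39.0 ± 3.02 CPM in anomaly animals and 59.4 ± 4.52 CPM in normal animals, a log2 fold change of -0.60 ± 0.15 (adjusted p = 0.0117). All anomaly libraries of Spcs1 were below all normal ones, though 16.3% of its exon bases are shared with Glt8d1, and without normal animal 3 the adjusted p was 0.052. Spcs2 averaged 50.04 ± 8.09 CPM in anomaly animals and 68.0 ± 7.94 CPM in normal animals, with a log2 fold change of -0.47 ± 0.18 that did not pass the test (95% interval -0.90 to -0.04; adjusted p = 0.0553). With library totals alone, the log2 fold changes of Spcs1, Spcs2, Ssr4 and Ssr3 turned positive, to 0.53, 0.67, 0.86 and 0.47, below that scaling's all-gene median of 0.97. With the recomputed trimmed mean, Spcs2, Ssr4 and Ssr3 were called lower, at -0.91, -0.71 and -1.13.

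The sensors and effectors of the unfolded protein response had few calls: 1 of 7 was higher, 1 was lower and 5 did not pass the test. The shares were 14.3% higher and 14.3% lower, against 32.4% and 31.0% of all tested genes. The median log2 fold change was -0.22. Eif2ak3, which encodes the sensor kinase PERK, had 18.5, 23.7 and 27.0 CPM (lowest, median, highest) in anomaly libraries and 4.46, 6.82 and 7.62 CPM in normal libraries. Its groups did not overlap, and the log2 fold change was 1.70 ± 0.21 (adjusted p = 0.000946). Ern1, which encodes the sensor IRE1, averaged 21.7 ± 5.37 CPM in anomaly animals and 24.9 ± 3.18 CPM in normal animals, a log2 fold change of -0.22 ± 0.23 (95% interval -0.76 to 0.33; adjusted p = 0.416). Atf6, the membrane-bound sensor that is cut to release a transcription factor, averaged 53.1 ± 7.06 CPM in anomaly animals and 53.2 ± 2.10 CPM in normal animals, a log2 fold change of -0.02 ± 0.15 (95% interval -0.38 to 0.34; adjusted p = 0.893). Of the 3 sensors, then, only Eif2ak3 passed the test.

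The transcription factors downstream of the sensors overlapped between groups. Xbp1, whose message IRE1 splices, averaged 93.6 ± 30.7 CPM in anomaly animals and 104 ± 31.8 CPM in normal animals, a log2 fold change of -0.17 ± 0.35 (95% interval -1.02 to 0.68; adjusted p = 0.681). Counts per gene do not tell spliced from unspliced Xbp1. Atf4, the factor made from a message whose translation PERK signalling favours, averaged 148 ± 20.6 CPM in anomaly animals and 197 ± 28.9 CPM in normal animals, a log2 fold change of -0.42 ± 0.21 (95% interval -0.92 to 0.09; adjusted p = 0.125). Ddit3, a target of ATF4 that encodes the pro-apoptotic factor CHOP, averaged 13.1 ± 2.89 CPM in anomaly animals and 15.1 ± 1.15 CPM in normal animals, a log2 fold change of -0.22 ± 0.21 (95% interval -0.72 to 0.28; adjusted p = 0.376). With library totals alone Ern1, Atf6, Atf4 and Ddit3 were called higher, at log2 fold changes of 0.89, 1.11, 0.74 and 0.87, and with the recomputed trimmed mean they were called lower, at -0.65, -0.46, -0.86 and -0.64. Xbp1 passed under neither. Levels of these messages say nothing of splicing, cleavage or translation, through which the sensors act.

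Herpud1, which scaffolds ER-associated degradation at the ER membrane and is a known target of the unfolded protein response, was the lowest of all members relative to normal muscle. It had 22.2, 31.2 and 43.2 CPM (lowest, median, highest) in anomaly libraries and 154, 176 and 192 CPM in normal libraries. The highest anomaly library was far below the lowest normal one, and the log2 fold change was -2.43 ± 0.17 (adjusted p = 0.000197). It was lower under all 19 alternatives, between -2.86 and -1.29. In GRCm38 it lies at chromosome 8, 94386438 to 94395377, on the plus strand, and shares no exon base with another annotated gene.

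Across promoters, the 7 members with an ERSE comprised 6 that were higher and Hspa5, which had no call, with a median log2 fold change of 1.54. Of all tested genes, 32.4% were higher and 31.0% lower. All 7 were luminal chaperones or lectin chaperones and isomerases, roles in which 7 of 8 and 5 of 6 genes were higher. In these roles Pdia3, Pdia4, Sdf2l1 and Dnajb11 had no ERSE in their windows and were also higher. P4hb, likewise without one, had no call. The part of the motif was not tested. Of the other 30 genes with an ERSE anywhere in the RefSeq table, 8 were tested, and 4 were higher, 1 was lower and 3 had no call, with a median of 0.68. The 2 members with an ERSE-II moved in opposite directions, Dnajb11 up by 0.68 and Herpud1 with a log2 fold change of -2.43. Pdia3, Pdia4, Serpinh1 and Crtap, with some of the largest increases, had a window without either motif; for Sec61a1, Fkbp10, Manf, Hyou1, Ssr2 and Atf6 no window was used here.

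To set genes beside each other, levels were divided by the length of all annotated exons of a gene, merged. Which of these exons were expressed was not tested, so the order across genes is approximate. Per kilobase of exon, Serpinh1 had the highest level of the 35 members in anomaly animals, at 286 ± 145 CPM per kb (SD, n = 3). It had 23.0 ± 3.8 in normal animals, where it ranked 12th. P4hb followed at 215 ± 84.8 CPM per kb in anomaly animals, against 106 ± 12.7 in normal animals, where it ranked highest. Calr came next at 202 ± 63.3 CPM per kb in anomaly animals, against 65.7 ± 7.54 in normal animals. These 3 levels overlapped within their spread in anomaly animals, so their order there is not resolved. Normal muscle had a different order: after P4hb came Ssr3 at 86.6 ± 21.1, Atf4 at 83.7 ± 12.2 and Herpud1 at 74.6 ± 6.04 CPM per kb, and again neighbours did not differ beyond their spread. Fkbp10 reached 40.2 ± 26.5 CPM per kb in anomaly animals, against 1.03 ± 0.386 in normal animals, where it and Eif2ak3 at 1.07 ± 0.222 were the lowest and did not differ beyond their spread.

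**Figure D4:**
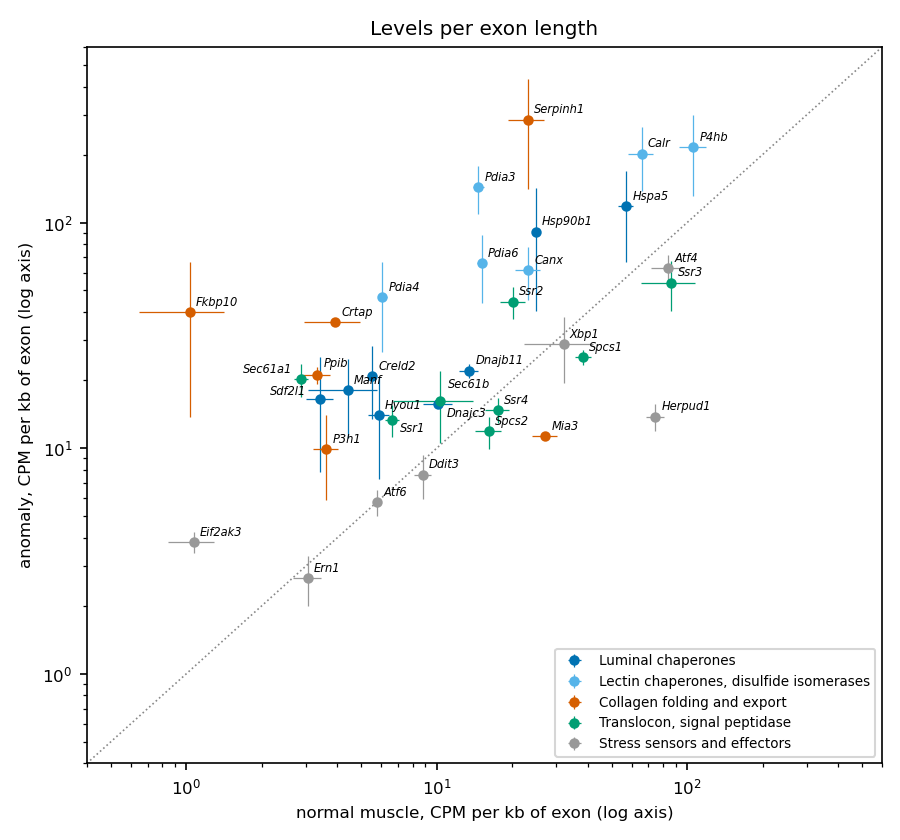
Mean level of each of the 35 members per kilobase of exon in anomaly (vertical) against normal muscle (horizontal), both on log axes, with the SD over 3 animals per group; the dotted line marks equal levels. Fkbp10, Serpinh1, Pdia3 and Crtap stand far above the line, Herpud1 and Mia3 below it, and Atf6, Xbp1 and Ern1 near it.

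The anomaly animals differed from each other. The median difference of the 35 members from the normal mean was 1.55 in anomaly animal 1, 1.11 in animal 2 and 0.77 in animal 3 on the log2 scale. Anomaly animal 3 was lowest for the luminal chaperones, at a median of 0.70 against 1.93 and 1.46 in animals 1 and 2, and for the lectin chaperones and isomerases, at 1.25 against 2.09 and 1.98. The collagen folding genes had medians of 2.72, 2.89 and 2.76 in animals 1, 2 and 3, which rest on genes of different pattern. Fkbp10 (5.64, 4.89 and 3.42), Serpinh1 (4.13, 3.23 and 2.99) and P3h1 (1.92, 1.22 and 0.82) were also lowest in animal 3, while Crtap, Ppib and Mia3 were nearly even as means of the 2 pieces. By limma's F test among the anomaly animals, in which the pieces of an animal supply the spread, 12 of 35 members passed an adjusted p of 0.05, against 35.1% of all tested genes, so the share of members was close to that of all genes. They were led by Fkbp10 (adjusted p = 0.000676), Hsp90b1 (adjusted p = 0.00324) and P3h1 (adjusted p = 0.00423).

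The pieces of anomaly animal 1 did not match. In 34 of 35 members the level was higher in piece 2 than in the shallow piece 1, by a median of 0.80 on the log2 scale, and 73.0% of all tested genes were higher there, by a median of 0.46. In anomaly animals 2 and 3 the medians between pieces were -0.14 and 0.002 for the members. With animal 1 represented by piece 2 alone, a choice made after the data were seen, 26 members differed among anomaly animals, and with library totals alone 23 did. These counts were not set beside the share of all tested genes under the same settings, so they cannot be read as particular to the members. Marker levels also differed among the anomaly animals. The summed muscle fibre markers were 11585 and 35163 CPM in the libraries of anomaly animal 3, against 184 to 1761 CPM in the other anomaly libraries. The macrophage markers summed to 463 and 453 CPM in animal 3, against 1056 to 2524 CPM in the others. The endothelial markers were in the opposite order to the members, with list medians of 3.05, 3.55 and 3.95 in animals 1, 2 and 3. The fibroblast markers summed to 1088 and 1048 CPM in animal 3, against 2787 to 4914 CPM in the others, but this sum is mostly Col1a1 and Col1a2, and the list medians were -0.58, 0.93 and 0.77 in animals 1, 2 and 3. Their part in the differences of the members was not tested.

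**Figure D5:**
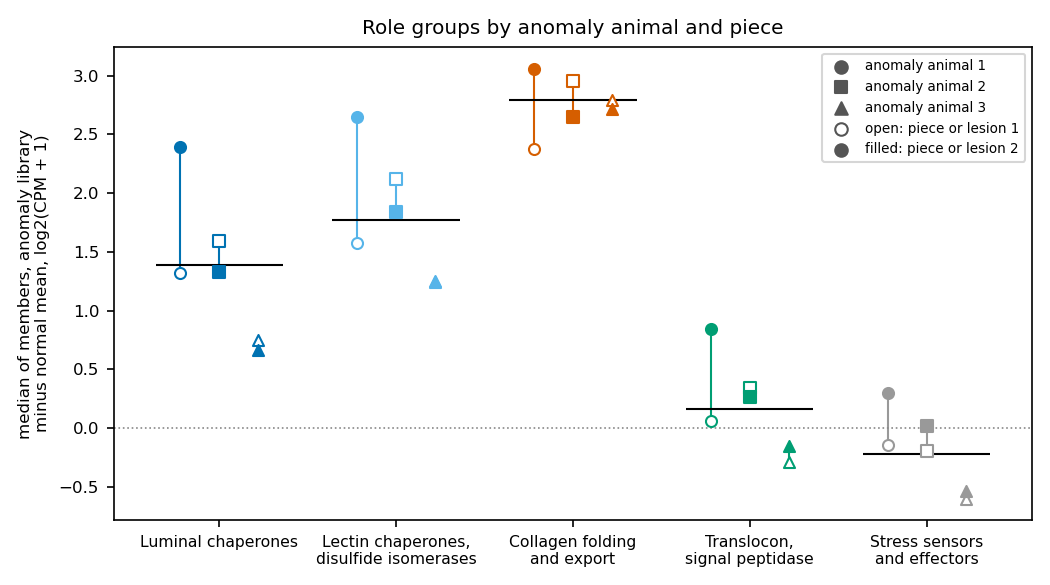
Median difference of each role's members from the normal mean, on the log2(CPM + 1) scale, for each anomaly library; open and filled symbols are the 2 pieces or lesions of an animal, joined by a line, and bars are the median fold change of the role. Anomaly animal 3 (triangles) lies lowest for all roles but collagen folding, and the pieces of animal 1 (circles) lie farther apart than those of the other animals.

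Scaling set the direction of the members with small changes. When libraries were scaled by their totals alone, the median of all tested genes was 0.97, 31 members were called higher and 1 lower, and the split of all genes was 8962 higher and 1850 lower. With a trimmed mean of M-values recomputed over all recovered reads, the all-gene median was -0.33, 18 members were higher and 10 lower, and 3743 genes were higher and 6006 lower. Relative to the all-gene median of each of 4 scalings, 24 members were above it in all 4 and 9 were below it in all 4, namely Mia3, Ssr3, Ssr4, Spcs1, Spcs2, Ern1, Atf4, Ddit3 and Herpud1. Atf6 and Xbp1 changed sides. By the definition of a median, as many tested genes lie above it as below it under each scaling. How many of all tested genes kept their side in all 4 was not counted. Hspa5 and P4hb, which had no call, were above the all-gene median by 0.81 to 1.11 and by 0.84 to 1.14 under the 4 scalings.

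Lists of related genes outside the members were read out of the same fit. Other ER chaperones and oxidoreductases resembled the luminal chaperones in their counts, with 24 of 34 higher, 2 lower and a median log2 fold change of 0.97. These were 70.6% higher and 5.88% lower, against 32.4% and 31.0% of all tested genes. Prdx4, an ER peroxiredoxin that drives disulfide formation, averaged 52.8 ± 9.86 CPM in anomaly animals and 4.22 ± 0.503 CPM in normal animals (log2 fold change 3.33 ± 0.19, adjusted p = 0.000139). Qsox1, a secreted sulfhydryl oxidase, and Cnpy3, a helper of GRP94, had log2 fold changes of 2.08 ± 0.17 (adjusted p = 0.000298) and 1.59 ± 0.14 (adjusted p = 0.000382). The 2 lower genes, named after their values were seen, were Dnajb9, a J-domain protein that restrains IRE1 (log2 fold change -1.24 ± 0.19, adjusted p = 0.00229), and Uggt2, a homologue of the glycoprotein folding sensor (log2 fold change -1.08 ± 0.22, adjusted p = 0.00657).

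The collagen genes themselves, as cargo of this pathway, were higher in 12 of 12 cases, against 32.4% of all tested genes. Their median log2 fold change was 4.27. Col18a1 averaged 1122 ± 249 CPM in anomaly animals and 9.92 ± 2.22 CPM in normal animals (log2 fold change 6.62 ± 0.27, adjusted p = 0.000105), and the basement membrane collagens Col4a1 and Col4a2 had log2 fold changes of 4.78 ± 0.40 and 4.43 ± 0.39. The 12 collagen genes took 2.20% ± 0.518 of reads in anomaly animals and 0.0477% ± 0.0230 in normal animals, which is 46.2 times the share, while the members took 4.73 times and the collagen folding genes 11.0 times their share in normal animals. Of 15 other genes of collagen modification and its regulation, 10 were higher (66.7%, against 32.4% of all tested genes) and none lower (median 1.68). Among the higher were the lysyl hydroxylase Plod1 (log2 fold change 2.16 ± 0.22, adjusted p = 0.000576), the prolyl 3-hydroxylase family member P3h3 (log2 fold change 3.11 ± 0.35, adjusted p = 0.000772) and the prolyl 4-hydroxylase subunit P4ha3 (log2 fold change 3.13 ± 0.39, adjusted p = 0.00103). P4ha3 had no read in at least 1 normal library.

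Protein targeting and export lists held genes that changed in both directions, to be read beside the 32.4% higher and 31.0% lower of all tested genes. Of 23 signal recognition and targeting genes, 4 were higher and 8 lower (17.4% and 34.8%, median -0.24), with the translocating chain-associated proteins Tram2 (log2 fold change 3.25 ± 0.19, adjusted p = 0.000142) and Tram1 (log2 fold change 2.60 ± 0.17, adjusted p = 0.000173) higher and the signal recognition particle receptor Srpr lower (log2 fold change -2.34 ± 0.20, adjusted p = 0.000331). Oligosaccharyltransferase genes, which attach N-glycans, were higher in 6 of 11 cases and lower in 1 (54.5% and 9.09%, median 0.54), led by Tusc3 (2.91 ± 0.29), Stt3a (1.90 ± 0.29) and Ddost (1.12 ± 0.17), all log2 fold changes. Of 21 genes of COPII coats and ER exit, 4 were higher and 6 lower (19.05% and 28.6%, median 0.03); the coat subunit Sec24d was higher (log2 fold change 3.08 ± 0.42, adjusted p = 0.00146) and the coat GTPase Sar1b was lower (log2 fold change -4.13 ± 0.32, adjusted p = 0.000261). Retrieval by COPI had 8 of 17 higher and 2 lower (47.1% and 11.8%, median 0.26), with the GTPase Arf4 and the KDEL receptors Kdelr3 and Kdelr2, which return ER proteins from the Golgi, at log2 fold changes of 2.34 ± 0.24, 3.59 ± 0.37 and 1.95 ± 0.23.

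Lists of degradation and stress genes had the following counts. Of 21 genes of ER-associated degradation, 6 were higher and 7 lower (28.6% and 33.3%, median -0.29), shares near those of all tested genes (32.4% and 31.0%), with Edem2 (log2 fold change 2.02 ± 0.19) and the lectin Os9 (1.62 ± 0.17) higher and the inhibitor Svip lower (-4.08 ± 0.50). Among 20 targets of the integrated stress response, the pathway through ATF4, 10 were higher and 2 lower (50% and 10%) with a median of 1.39, the same as that of the luminal chaperones. The 3 with the smallest p were the serine synthesis enzyme Psat1 (log2 fold change 3.46 ± 0.34, adjusted p = 0.000479), the asparagine synthetase Asns (2.98 ± 0.33, adjusted p = 0.000705) and the phosphatase regulator Ppp1r15b (1.38 ± 0.15, adjusted p = 0.000736). The 2 lower ones, named after their values were seen, were Chac1 (log2 fold change -2.22 ± 0.57, adjusted p = 0.0146) and Vldlr (-3.30 ± 0.94, adjusted p = 0.0216). Another 24 regulators of the unfolded protein response were 9 higher and 8 lower (37.5% and 33.3%, again near the shares of all tested genes; median 0.17), with the apoptosis effectors Bax (log2 fold change 2.27 ± 0.20) and Bak1 (1.33 ± 0.16) higher and the kinase Eif2ak1 lower (-1.47 ± 0.17).

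Muscle has its own specialised ER, the sarcoplasmic reticulum, which stores calcium for contraction, and its genes fell with the muscle fibre markers. Of 16 tested sarcoplasmic reticulum genes, 12 were lower (75%, against 31.0% of all tested genes) and none higher, with a median log2 fold change of -6.14. Jph2, which links the sarcoplasmic reticulum to the cell membrane, fell by 5.78, Stim1, a calcium sensor, by 3.25 and Asph by 2.52 on the log2 scale (adjusted p = 0.00108, 0.00225 and 0.00114). Herpud1, Mia3 and Spcs1 were lower as well, but their values by animal had another pattern. The list medians were -7.14, -8.03 and -3.14 in anomaly animals 1, 2 and 3. Herpud1 had -2.65, -2.34 and -2.29, Mia3 -1.19, -1.29 and -1.25, and Spcs1 -0.71, -0.48 and -0.61. The part of the muscle fibre content in the values of these members was not tested. Plasma cells, which are rich in secretory ER, were looked for with 12 markers, of which 10 were tested. Sdc1 and Prdm1 were higher (log2 fold changes 3.83 ± 0.48 and 3.32 ± 0.32, adjusted p = 0.00104 and 0.000479) and 8 had no call. The share higher was 20%, against 32.4% of all tested genes, and the list median was 0.44. Mzb1, a plasma cell chaperone, averaged 0.544 ± 0.360 CPM in anomaly animals and 1.03 ± 0.0905 CPM in normal animals (log2 fold change -0.50 ± 0.20, adjusted p = 0.0656). It was at 0 in at least 1 anomaly library, as was Tnfrsf17, which was also at 0 in at least 1 normal library. The list summed to 44.1 to 169 CPM in anomaly and 6.19 to 23.8 CPM in normal libraries.

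Among the markers of other cell types that were also higher in anomaly were the endothelial genes Emcn, Pecam1 and Esam (log2 fold changes 4.03 ± 0.17, 3.80 ± 0.26 and 3.48 ± 0.26). The endothelial list summed to 1708 to 6219 CPM in anomaly and 289 to 451 CPM in normal libraries. Fibroblast markers summed to 1048 to 4914 CPM in anomaly and 131 to 631 CPM in normal libraries, most of it from the cargo genes Col1a1 (4.88 ± 0.83) and Col1a2 (4.23 ± 0.77), which another list here also holds. Besides these, Thy1 was higher (3.91 ± 0.35), and the other 5 fibroblast markers had no call, named after their values were seen: Dcn (-2.32 ± 0.94), Dpt (-1.20 ± 1.19), Lum (-0.60 ± 1.03), Pdgfra (-0.15 ± 0.64) and Fap (0.72 ± 0.52). The median of the list was 0.29. Mural markers summed to 960 to 2668 CPM in anomaly and 250.2 to 592 CPM in normal libraries (Cspg4 2.54 ± 0.29, Pdgfrb 3.72 ± 0.46, Acta2 2.89 ± 0.56). Macrophage markers summed to 453 to 2524 CPM in anomaly and 31.3 to 194 CPM in normal libraries (Mpeg1 5.70 ± 0.78, Lyz2 3.88 ± 0.62, Adgre1 3.35 ± 0.58), and cell division markers to 191 to 672 CPM in anomaly and 0.850 to 1.91 CPM in normal libraries (Mki67 6.51 ± 0.18, Top2a 6.25 ± 0.18, Cdk1 5.67 ± 0.17). The muscle fibre genes Myh4, Tnnc2 and Ckm had log2 fold changes of -9.53 ± 0.93, -6.30 ± 1.13 and -7.92 ± 1.45. The 5 adipocyte markers Cfd, Adipoq, Plin1, Cidec and Lep had no call, at log2 fold changes of -3.72 ± 1.37, -2.10 ± 1.15, -1.98 ± 1.13, -1.81 ± 1.12 and -0.94 ± 1.16 (adjusted p = 0.0514, 0.15, 0.166, 0.195 and 0.493). How much of the members' change each cell type carried was not tested.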

How the data were processed

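The authors deposited 1 table of log2 CPM values for 12 libraries, 1 column per library. Per the file headers, the columns derive from STAR's per-gene read counts, and the build was mm10 (GRCm38) and the tools STAR and limma, per the submitters' processing notes; versions, annotation and scaling method were not given in the sources used here. Per the labels' protocols, polyadenylated RNA was sequenced from unstranded TruSeq libraries made from 1 ug of RNA. The deposited log2 values had a floor of -6.707 for genes without reads. Above it, 100% of values were whole multiples of 1 step per library within 0.01, which gave CPM, reads and effective library sizes; in piece 1 of anomaly animal 1 the units may not be reads as sequenced, since 40.4% of its genes with reads sat at 1 unit, against at most 13.4% in the other libraries. Effective size over total ran from 1.43 to 2.12 over the anomaly libraries and from 0.712 to 0.800 over the normal ones.

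From these, the mean log2(CPM + 1) of an animal's 2 libraries was taken, genes averaging 1 CPM or more in either group were kept, and 3 animals were tested against 3 with limma 3.58.1 (R 4.3.3, trend on), two-sided, with Benjamini-Hochberg adjustment over all tested genes at 0.05. A permutation of 3 against 3 cannot go below a two-sided p of 0.1, so read shares carry no p. The pipeline was tested on simulated data. Alternatives were library totals, median-of-ratios, a recomputed trimmed mean, other filters and pseudocounts, single pieces, 12-library fits, voom on summed reads and leaving out each animal. Members and lists were chosen with earlier results of these data known. All members are named, and from each other list the up to 3 genes with the smallest p, or all of a list with 5 or fewer tested genes; exceptions are marked. Exon lengths, overlaps and copies came from GENCODE vM21 (blastn 2.17.0), and promoter sequences from RefSeq, GRCm38.p6. Protein sequences were not used here.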

Additional observations from a re-analysis of the deposited data

Results flagged for a closer look

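Among the 70 groups of 6 libraries examined for the members, 4 held a library that stood apart from the other 5 by Dixon's criterion, where chance gives about 1 in 20 groups. In anomaly tissue these were all piece 2 of animal 1. Serpinh1 was at 1589 CPM there, against 441 to 639 CPM in the other anomaly libraries. Ssr1 was at 200.4 CPM, against 115 to 136 CPM. Atf6 was at 75.6 CPM, against 45.2 to 54.7 CPM. In normal muscle, Canx was at 136 CPM in piece 2 of animal 3, against 98.7 to 110 CPM in the other normal libraries. With anomaly animal 1 by piece 2 alone, the count of members higher was 21, as with both pieces.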

How the results depend on the processing

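Of 665 values of single members under alternatives, 611 kept direction and side of the threshold, 16 lost the call, 23 gained one and 15 turned round; 18 members kept both throughout. Library totals alone gave 8962 genes higher and 1850 lower, 1 member lower and 23 members different among anomaly animals, and the recomputed trimmed mean gave 10 members lower. Anomaly animal 1 by piece 2 alone gave 26 members different among anomaly animals. Neither this count nor the 23 was set beside the share of all tested genes under its setting. With library totals the log2 fold changes of Ssr3, Ssr4, Spcs1, Spcs2, Ern1, Atf6, Xbp1, Atf4 and Ddit3 were 0.47, 0.86, 0.53, 0.67, 0.89, 1.11, 0.97, 0.74 and 0.87, and the median of the stress sensors and effectors was 0.89. Atf6 was also positive with piece 2 alone (0.173) and with animal 1 by piece 2 (0.0916), and leaving out each animal gave -0.113 to 0.0465 for Atf6 and -0.431 to 0.134 for Xbp1. The translocon median was -0.261 with the recomputed trimmed mean, -0.0538 with piece 1 alone and, leaving out each animal, -0.0117 to 0.355. Leaving out each animal gave 3593 to 5297 genes higher, 3591 to 4861 lower, 19 to 23 members higher and 2 to 4 lower. The causes were not tested. Piece numbers only name pieces and pair nothing across animals; with all 12 libraries, the animal as a random block and the piece number as a replicate block, 23 members were higher and 4 lower (5045 and 4748 genes). Depth limited piece 1 of anomaly animal 1, where some members rested on 6 units. At an adjusted p of 0.01, 17 of the 35 members were higher and 2 lower. Of the 14687 tested genes, 3212 were higher and 3215 lower at that threshold.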
